A study of Mus musculus with 12 samples.

Results

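The 10 genes Cd80, Cd86, Icosl, Cd274, Pdcd1lg2, Cd83, Cd69, Cd70, Tnfsf9 and Slamf1 encode costimulatory ligands, checkpoint ligands and activation markers of B cells. They were taken by gene symbol from a deposited table of 36175 genes, in which all 10 are present and each has 1 row. The table comes from bulk RNA sequencing (RNA-seq) of B cells from the intestinal Peyer's patches (PP), with 1 library per mouse, from 6 sham controls and 6 stroke mice, the latter labelled "Brain injury". All were male wild-type C57BL/6JHsd mice, which according to the methods were 10 to 12 weeks old. B cells were collected 18 h after surgery. For stroke, a filament blocked the middle cerebral artery for 1 h before reperfusion, and in sham controls it was withdrawn at once from the common carotid artery. The B cells were those that remained in the PP and were enriched with magnetic beads, first with a B cell kit that left small amounts of epithelial and endothelial cells and then through CD45, after which the methods describe the B cells as nearly pure. Transcripts of other cells were still measured, as given with the marker genes. In bulk samples, fewer cells of a type and less RNA per cell cannot be told apart.

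A T cell that meets its antigen on a B cell needs further signals through ligands on the B cell surface. CD80 and CD86 engage CD28, which activates the T cell, or CTLA-4, which restrains it. ICOSL engages ICOS on follicular helper T cells and sustains germinal centres, which in PP are driven by gut antigens and produce B cells switched to IgA. PD-L1, encoded by Cd274, and PD-L2, encoded by Pdcd1lg2, engage the inhibitory receptor PD-1. CD70 and the protein of Tnfsf9 are TNF family ligands of CD27 and of the receptor encoded by Tnfrsf9. SLAMF1 is a receptor that binds itself on neighbouring lymphocytes. CD69 and CD83 appear early on activated B cells, where CD69 holds S1P receptor 1 inside the cell and CD83 limits the turnover of MHC class II and CD86.

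Cd274 and Pdcd1lg2 are neighbours on chromosome 19 of GRCm38, from 29367455 to 29388095 and from 29410919 to 29471161, with 22.8 kb between them. Promoter windows of RefSeq (GRCm38.p6), which hold 250 bases before and 50 bases after a start site, were matched for 5 of the 10 genes, namely Cd80, Cd274, Icosl, Pdcd1lg2 and Slamf1. The 250 bases before the start are shown for the PD-1 ligand pair, whose ratio within a mouse is compared further on, and for Cd80, the member with a motif match. For Cd80, the RefSeq start lies inside the gene as GENCODE annotates it. All run 5′ to 3′ on the plus strand, and capitals mark the motif match.
Cd274, chr19:29367188-29367437: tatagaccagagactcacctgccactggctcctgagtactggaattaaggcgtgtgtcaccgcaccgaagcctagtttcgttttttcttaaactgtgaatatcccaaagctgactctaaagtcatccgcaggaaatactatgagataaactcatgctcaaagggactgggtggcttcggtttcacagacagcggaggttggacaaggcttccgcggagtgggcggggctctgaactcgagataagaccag
Pdcd1lg2, chr19:29410669-29410918: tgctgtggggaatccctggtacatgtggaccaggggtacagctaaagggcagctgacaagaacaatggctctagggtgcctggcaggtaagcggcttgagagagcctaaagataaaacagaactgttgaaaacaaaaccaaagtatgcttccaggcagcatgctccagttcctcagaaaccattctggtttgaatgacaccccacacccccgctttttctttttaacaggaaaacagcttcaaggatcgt
Cd80, chr16:38458683-38458932: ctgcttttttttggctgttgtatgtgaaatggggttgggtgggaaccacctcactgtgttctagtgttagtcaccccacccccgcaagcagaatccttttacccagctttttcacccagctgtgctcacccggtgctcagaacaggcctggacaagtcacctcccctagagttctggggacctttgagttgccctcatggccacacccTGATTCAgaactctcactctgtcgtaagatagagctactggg
The windows were searched on both strands for the NF-kB consensus, TGANTCA (AP-1), TGACGTCA (CRE), AAAGGTCA (NBRE), GCGTGGGCG (EGR) and TTCCNGGAA (STAT). The Cd80 window held TGATTCA from 42 to 36 bases before the start, a match to the AP-1 motif, which is found in 7.81% of all 32851 windows. The other 4 windows held none of the 6 motifs. The shares of all windows with a match were 0.411% for NF-kB, 1.79% for CRE, 1.51% for NBRE, 0.612% for EGR and 1.15% for STAT. The 250 bases were richest in G and C for Icosl, at 68.8%, and were at 50.4% for Cd274, 48.4% for Pdcd1lg2 and 47.2% for Slamf1, compared with a median of 52.4% over all windows.

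The values are an expression signal per gene, labelled as normalized TPM, which accounts for transcript length. The column totals ranged from 559570 to 1404340, so the values are not plain TPM, and the read depth behind them is unknown. B cell identity was clear in every mouse. The summed value of 8 B cell markers ranged from 2269 to 2908 in sham controls and from 1689, in stroke mouse 5, to 2700 in stroke mice. The 9 T cell markers summed to between 85.5 and 153 in sham controls and between 72.4 and 185 in stroke mice, and the 10 markers of dendritic cells and macrophages to between 62.1 and 322 and between 65.3 and 185. The 8 epithelial markers summed to between 31.7 and 1661 in sham controls and between 29.2 and 1025 in stroke mice, highest in sham controls 1 and 2 and near the bottom in sham control 6. Plasma cell markers summed to between 241 and 1376 and between 321 and 999.7, and germinal centre markers to between 146 and 314 and between 155 and 329.7. Neutrophil markers summed to no more than 6.34 and 8.52. Endothelial markers, almost all Pecam1, summed to between 78.4 and 106 and between 87.4 and 107. The other endothelial markers, Cdh5, Kdr and Tie1, averaged 0.9995, 0.408 and 0.587 over all 12 mice, so this sum says little beyond Pecam1. No marker was at 0 in every mouse. Of the marker genes that never fell under 1, 1 had an unadjusted p under 0.05 (limma), where 6.12% of all genes tested did. This was Flt3 of dendritic cells, with a log2 fold change of 0.50 (adjusted p = 0.716, limma). Of the 7 tested markers of dendritic cells and macrophages, 4 had a negative log2 fold change, with a median of -0.054. Sham control 6 and stroke mouse 5 stood apart for several members, and values without them are given for the members they move most.

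Cd83 and Icosl were the most abundant members and Cd70 was hardly present. Averaged over all 12 mice, the value was 139.7 for Cd83, 125 for Icosl, 36.7 for Cd69, 29.6 for Cd86, 23.4 for Slamf1, 14.7 for Cd274, 6.24 for Pdcd1lg2, 4.21 for Cd80, 3.70 for Tnfsf9 and 0.234 for Cd70. Adjacent genes in this order were compared within each mouse on the log2 scale. Cd83 was above Icosl in 7 of 12 mice and Cd80 above Tnfsf9 in 7 of 12, so these pairs could not be ordered beyond the spread of the mice (exact sign-flip test, p = 0.726 and p = 0.310). Cd69 was above Cd86 in 10 of 12 mice (exact sign-flip test, p = 0.0791). The other neighbours were ordered alike in at least 10 of 12 mice (exact sign-flip test, p from 0.000488, the smallest that 12 mice allow, to 0.0459 for Pdcd1lg2 over Cd80). Cd83 and Icosl lay at the 94.2 and 93.2 percentiles of the 12590 genes tested, whereas Cd80 lay at 13.2 and Tnfsf9 at 10.6.

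**Figure D1:**
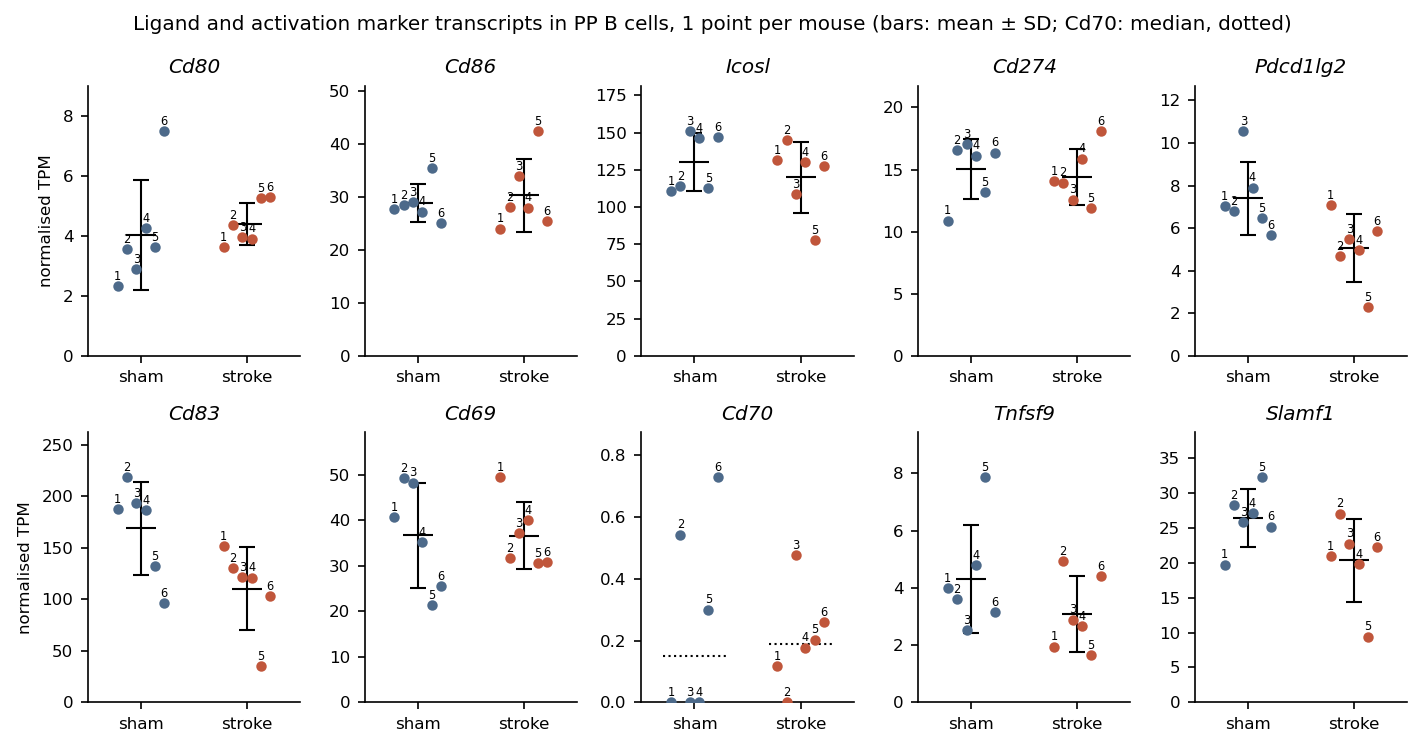
Normalised TPM (linear axis from 0) of the 10 genes in 6 sham controls (blue) and 6 stroke mice (red), 1 point per mouse labelled with its replicate number; bars give the mean and SD, and dotted lines the median for Cd70. Cd83 runs from 96.6 to 218 in sham controls and from 35.3 to 151 in stroke mice, and stroke mouse 5 is the lowest stroke mouse for 7 of the 10 genes.

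Of the 9 members whose value never fell under 1 in any mouse, 6 were lower and 3 were higher in stroke mice, where 48.6% of all genes tested were lower, and 2 had an unadjusted p under 0.05, both lower. These were Pdcd1lg2 and Cd83. Among all 12590 genes tested, 6.12% had an unadjusted p under 0.05, with 4.42% higher and 1.69% lower in stroke mice (limma on log2(value + 0.5)). The median log2 fold change was -0.13 over the 9 members and 0.0069 over all genes. The median of the members was -0.050 without stroke mouse 5, -0.095 without sham control 6, -0.076 with array weights and -0.0061 under equal totals. Relative to B cell markers it was 0.024, with 4 members lower and 5 higher, where all genes had a median of 0.16 and 21.7% were lower. After Benjamini-Hochberg adjustment over all genes, 0 of the 9 members and 0 of the 12590 genes (0%) had an adjusted p under 0.05 (limma), and the adjusted p of the members lay between 0.789 and 0.974. The values of the groups overlapped for all 10 genes. Over all genes tested, the groups were fully separated for 0.349% with stroke higher and for 0.0874% with stroke lower. Counts over all genes depend on the scaling, with 557 genes higher and 213 lower as deposited, 348 and 70 after scaling to equal totals and 836 and 47 relative to B cell markers, where the median log2 fold change of all genes was 0.13 and 0.16.

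Of the PD-1 ligands, Pdcd1lg2 was lower in stroke mice before adjustment, whereas the interval for Cd274 spanned 0. Pdcd1lg2 had values of 7.04, 6.82, 10.6, 7.90, 6.49 and 5.66 from sham control 1 to 6 and of 7.09, 4.68, 5.49, 4.97, 2.30 and 5.85 from stroke mouse 1 to 6. Thus 4 of the 6 stroke mice lay below every sham control, and stroke mouse 1 lay above 4 of them. The mean was 7.41 ± 1.71 in sham controls compared with 5.06 ± 1.59 in stroke mice (SD, n = 6 each), a log2 fold change of -0.54 (standard error 0.22, 95% interval from -1.01 to -0.075, unadjusted p = 0.0263, adjusted p = 0.789 from limma). The exact two-sided permutation test gave p = 0.0238, where 6 mice against 6 allow no less than 0.00216. With single mice left out, the log2 fold change stayed between -0.65 and -0.36, and the unadjusted p was under 0.05 in 11 of 12 such fits, the exception being the fit without sham control 3, at -0.44 with an unadjusted p = 0.0649 (limma). The call was also lost with the epithelial score as a covariate, at -0.45 with an unadjusted p = 0.0644, and after scaling to equal totals, at -0.44 with an unadjusted p = 0.103 (limma).

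Cd274 was nearly level between the groups. Its values were 10.9, 16.6, 17.0, 16.1, 13.2 and 16.4 from sham control 1 to 6 and 14.1, 13.9, 12.6, 15.9, 11.9 and 18.1 from stroke mouse 1 to 6. All but stroke mouse 6 lay within the range of the sham controls. The log2 fold change was -0.055 (95% interval from -0.36 to 0.25, adjusted p = 0.942 from limma), which leaves room for a change of up to 0.78-fold or 1.19-fold, and was -0.0049 without stroke mouse 5. Its direction turned under scaling to equal totals, at 0.064, and relative to B cell markers, at 0.10, where the median of all genes was 0.13 and 0.16. The log2 ratio of Cd274 to Pdcd1lg2 within a mouse, which removes most of any scaling shared by a library, was 0.98 ± 0.33 in sham controls compared with 1.47 ± 0.42 in stroke mice (SD, n = 6 each). It lay above every sham control in 4 of 6 stroke mice (exact two-sided permutation test, p = 0.0519, adjusted over the 4 ratios compared 0.104). Without sham control 6 the difference of 0.49 was 0.58 (exact permutation test, p = 0.0281 without adjustment), and without stroke mouse 5 it was 0.35 (exact permutation test, p = 0.0974). The linear ratio ran from 1.55 to 2.89 in sham controls and from 1.99 to 5.17 in stroke mice.

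Cd83 lies on chromosome 13 of GRCm38 from 43784775 to 43803132. It had values of 187, 218, 193, 187, 132 and 96.6 from sham control 1 to 6 and of 151, 130, 122, 121, 35.3 and 103 from stroke mouse 1 to 6. All 6 stroke mice lay below the sham median of 187, but sham controls 5 and 6 lay among them. The mean was 169 ± 45.2 compared with 110.4 ± 39.99 (SD, n = 6 each). The log2 fold change of -0.69 (standard error 0.32, 95% interval from -1.38 to -8.57e-05, unadjusted p = 0.0499754, adjusted p = 0.791 from limma) sat at the threshold of the unadjusted test, and the exact two-sided permutation p was 0.0498. Of the 12 fits with a single mouse left out, 3 had an unadjusted p under 0.05, namely those without sham control 6, stroke mouse 1 or stroke mouse 2. The change was -0.39 without stroke mouse 5 (unadjusted p = 0.0771) and -0.84 without sham control 6 (unadjusted p = 0.0200), and without both of them it was -0.54 (unadjusted p = 0.00382, adjusted p = 0.274, limma). It was -0.54 without sham controls 1 and 2 (unadjusted p = 0.175) and -0.47 with the epithelial score as a covariate (unadjusted p = 0.135, limma). Cd83 varied more between mice of a group than 90.7% of all genes tested, with a within-group SD of 0.62 on the log2 scale.

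Cd69, on chromosome 6 from 129267325 to 129275436, had values of 40.8, 49.2, 48.3, 35.2, 21.4 and 25.5 from sham control 1 to 6 and of 49.4, 31.7, 37.2, 40.05, 30.6 and 30.9 from stroke mouse 1 to 6. The groups had nearly the same mean, 36.7 ± 11.6 compared with 36.6 ± 7.35 (SD, n = 6 each), and sham controls 5 and 6 were the lowest of all mice. For Cd69 the log2 fold change was 0.039 (95% interval from -0.42 to 0.50, adjusted p = 0.974 from limma). It was -0.10 without sham control 5 and -0.0054 without sham control 6 and stroke mouse 5.

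The ratio of Cd69 to Cd83 within a mouse was higher in stroke mice. On the log2 scale it was -2.19, -2.14, -1.99, -2.39, -2.60 and -1.90 from sham control 1 to 6 and -1.60, -2.02, -1.70, -1.58, -0.20 and -1.72 from stroke mouse 1 to 6. Of the stroke mice, 5 of 6 lay above every sham control, and stroke mouse 2 lay among them. The mean was -2.20 ± 0.26 in sham controls compared with -1.47 ± 0.64 in stroke mice (SD, n = 6 each), so Cd69 relative to Cd83 was 1.66-fold higher (exact two-sided permutation test, p = 0.00649). It was 1 of 4 ratios compared, and its p was 0.0260 when adjusted over them (exact permutation tests with Benjamini-Hochberg adjustment). Without stroke mouse 5, the difference of 0.73 on the log2 scale dropped to 0.48 (exact permutation test, p = 0.0108). In all 20 alternatives, most of which left out mice, the difference stayed between 0.48 and 0.84, and the exact p between 0.00216 and 0.0333. A factor shared by a library nearly cancels in a ratio, so equal totals and median-of-ratios scaling could hardly move it. The ratio was not recomputed with array weights or the epithelial covariate.

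**Figure D2:**
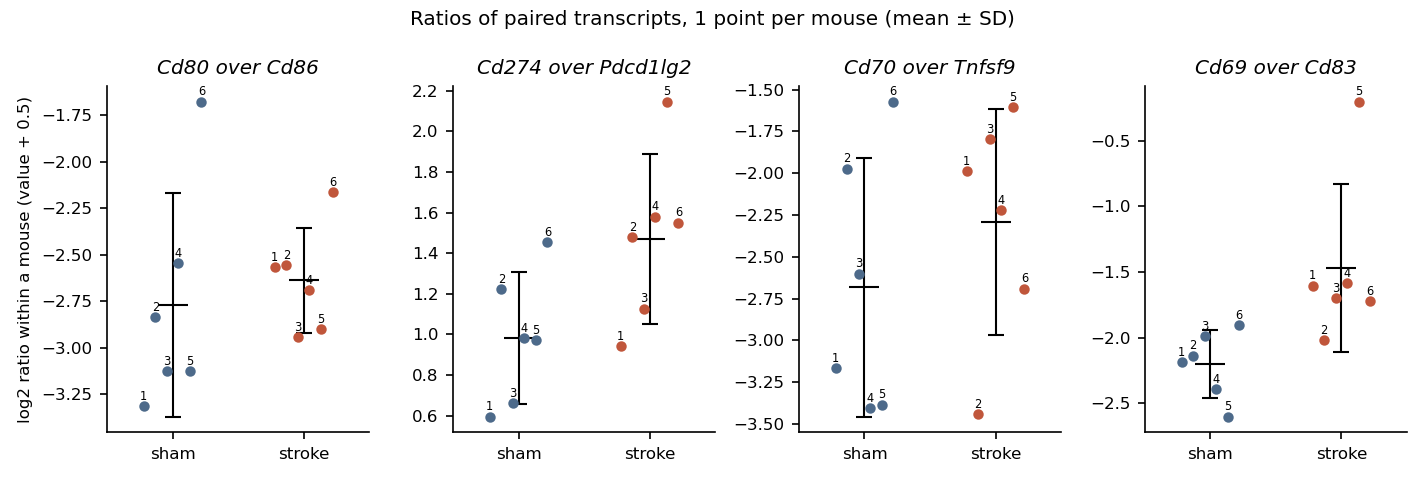
Log2 ratio of 2 members within a mouse (vertical axis, of value + 0.5), 1 point per mouse with its replicate number, for sham controls (blue) and stroke mice (red), with mean and SD as bars; the vertical axes differ. For Cd69 over Cd83, sham controls lie between -2.60 and -1.90 and 5 of 6 stroke mice lie above -1.90, whereas for Cd80 over Cd86 the groups overlap fully.

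The CD28 ligands were not separable between the groups. Cd86, on chromosome 16 from 36603869 to 36666081, had values of 27.7, 28.5, 29.1, 27.2, 35.4 and 25.1 from sham control 1 to 6 and of 24.0, 28.1, 33.9, 28.0, 42.4 and 25.4 from stroke mouse 1 to 6. Stroke mouse 5, the lowest for Cd83, was the highest for Cd86. For Cd86 the log2 fold change was 0.052 (95% interval from -0.26 to 0.37, adjusted p = 0.949 from limma) and turned to -0.050 without stroke mouse 5. Cd80, on the same chromosome from 38455561 to 38496335, had values of 2.33, 3.56, 2.88, 4.25, 3.62 and 7.49 from sham control 1 to 6 and of 3.63, 4.36, 3.97, 3.91, 5.25 and 5.28 from stroke mouse 1 to 6. All 6 stroke mice lay above the sham median of 3.59 and within the sham range, since sham control 6 had 2.10 times the median of the other sham controls.

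The log2 fold change of Cd80 was 0.19 (95% interval from -0.27 to 0.64, adjusted p = 0.871 from limma). Without sham control 6 it was 0.37 with an unadjusted p of 0.0319 and an adjusted p of 0.284, and without sham control 1 it was 0.067 (limma). The log2 ratio of Cd80 to Cd86 was -2.77 ± 0.60 in sham controls compared with -2.64 ± 0.28 in stroke mice (SD, n = 6 each), a difference of 0.13 (exact two-sided permutation test, p = 0.649). Cd86 was more abundant than Cd80 in every mouse. The difference was 0.35 without sham control 6 and 0.025 without sham control 1 (exact permutation tests, p = 0.0801 and p = 0.933).

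Icosl, on chromosome 10 from 78069302 to 78083913, had values of 111, 114, 151, 146, 112 and 147 from sham control 1 to 6 and of 131, 145, 108, 130, 77.5 and 127 from stroke mouse 1 to 6. The mean was 130.2 ± 19.6 in sham controls compared with 120 ± 23.9 in stroke mice (SD, n = 6 each), and stroke mouse 5 alone lay well below the rest. For Icosl the log2 fold change was -0.13 (95% interval from -0.48 to 0.21, adjusted p = 0.876 from limma), and -0.012 without stroke mouse 5. Its direction turned relative to B cell markers, at 0.024, where the median of all genes was 0.16.

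Slamf1, on chromosome 1 from 171767127 to 171801184, had values of 19.7, 28.3, 25.8, 27.1, 32.2 and 25.2 from sham control 1 to 6 and of 20.9, 27.0, 22.7, 19.8, 9.41 and 22.2 from stroke mouse 1 to 6. Of the stroke mice, 5 of 6 lay below the sham median of 26.4, but only stroke mouse 5 lay below every sham control. The log2 fold change of -0.42 (standard error 0.22, 95% interval from -0.88 to 0.048, unadjusted p = 0.0747, adjusted p = 0.791 from limma) was -0.22 without that mouse (unadjusted p = 0.130, limma). The unadjusted p was under 0.05 without sham control 1, at 0.0451, or without stroke mouse 2, at 0.0376 (limma).

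The TNF family ligands were scarce. Tnfsf9 and Cd70 lie 38.2 kb apart on chromosome 17, from 57105325 to 57107757 and from 57145997 to 57149777. Tnfsf9 had values of 3.98, 3.60, 2.53, 4.80, 7.85 and 3.15 from sham control 1 to 6 and of 1.95, 4.93, 2.89, 2.66, 1.64 and 4.40 from stroke mouse 1 to 6. The groups overlapped widely, with stroke mice 1 and 5 below every sham control. For Tnfsf9 the log2 fold change was -0.43 (95% interval from -1.02 to 0.15, adjusted p = 0.793 from limma), -0.26 without sham control 5 and -0.30 without stroke mouse 5. Cd70 was under 1 in all 12 mice and listed at 0 in sham controls 1, 3 and 4 and in stroke mouse 2. Its other values were 0.544, 0.3005 and 0.728 in sham controls 2, 5 and 6 and 0.118, 0.476, 0.177, 0.204 and 0.259 in stroke mice 1, 3, 4, 5 and 6. At such values no difference was detectable (exact two-sided permutation test of log2(value + 0.5), p = 0.900). The log2 ratio of Cd70 to Tnfsf9, which rests mostly on the added 0.5, differed by 0.39 (exact two-sided permutation test, p = 0.364).

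**Figure D3:**
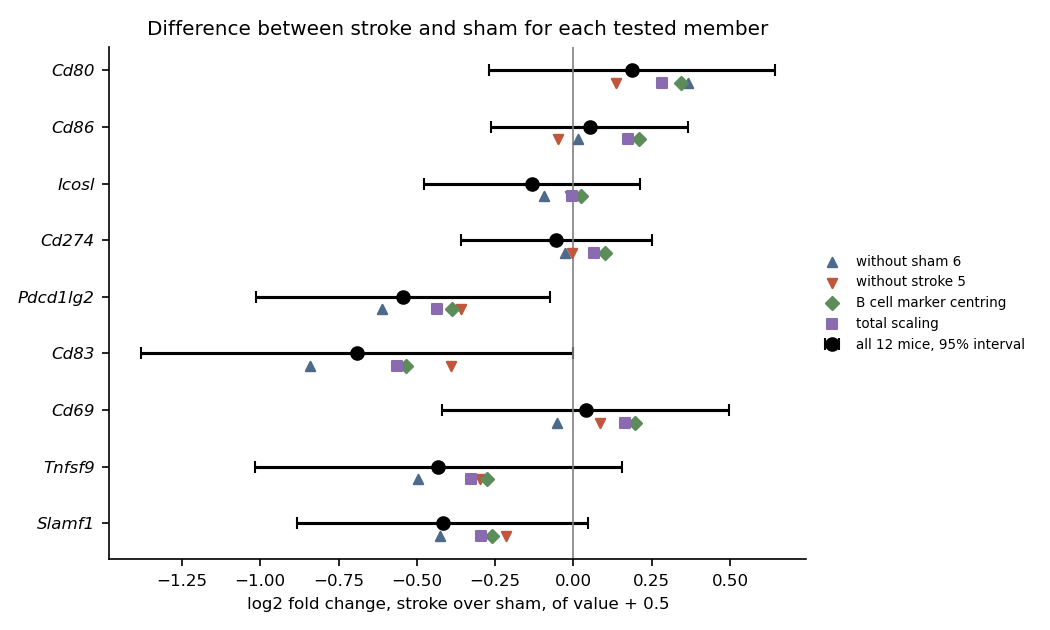
Log2 fold change of stroke over sham (horizontal axis, of value + 0.5) for the 9 tested members, with the 95% limma interval over all 12 mice in black and the value without sham control 6, without stroke mouse 5, relative to B cell markers and after scaling to equal totals as coloured symbols. The 95% interval lies below 0 for Pdcd1lg2 and Cd83, reaching -0.075 and -8.57e-05, and crosses 0 for the other 7.

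Members also varied between mice in ways that the groups do not account for. Relations were computed for the 36 pairs of the 9 tested members over all 12 mice on the log2 scale, and 1 pair had an adjusted p under 0.05. Pdcd1lg2 and Cd83 varied together, with Pearson's r = 0.90 (permutation p = 0.000540, adjusted over 36 pairs 0.0194) and Spearman's rho = 0.78 (permutation p = 0.00367, adjusted 0.0661). The r was 0.68 without the mice farthest from the median, sham control 3 and stroke mouse 5, and 0.85 within groups. Genes of a library share its scaling, and r was 0.88 after median-of-ratios scaling and 0.83 after scaling to equal totals. By contrast, the neighbouring genes Cd274 and Pdcd1lg2 had r = 0.40 and rho = 0.36 (permutation p = 0.197 and p = 0.246, adjusted 0.325 and 0.557), with r = 0.33 without sham control 1 and stroke mouse 5.

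Cd80 and Cd83 had a negative relation that did not pass adjustment, with r = -0.62 (permutation p = 0.0430, adjusted 0.168) and rho = -0.83 (permutation p = 0.00143, adjusted 0.0515). Without sham controls 1 and 6, r was -0.72, whereas scaling to equal totals left r = -0.17. Cd86 and Icosl had r = -0.79 and rho = -0.52 (permutation p = 0.00444 and p = 0.0842, adjusted 0.0799 and 0.351), which was -0.42 without sham control 5 and stroke mouse 5 and turned to 0.46 under equal totals. Cd83 and Slamf1 had r = 0.78 and rho = 0.45 (permutation p = 0.0253 and p = 0.142, adjusted 0.136 and 0.512). This relation rests on single mice, as r was 0.018 without sham control 2 and stroke mouse 5. The relation of Cd80 and Cd86 depended on the scaling, with r = -0.017 and rho = -0.23 (permutation p = 0.956 and p = 0.472, adjusted 0.956 and 0.870) and r = 0.21 without sham controls 1 and 6, and r = 0.77 under equal totals.

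**Figure D4:**
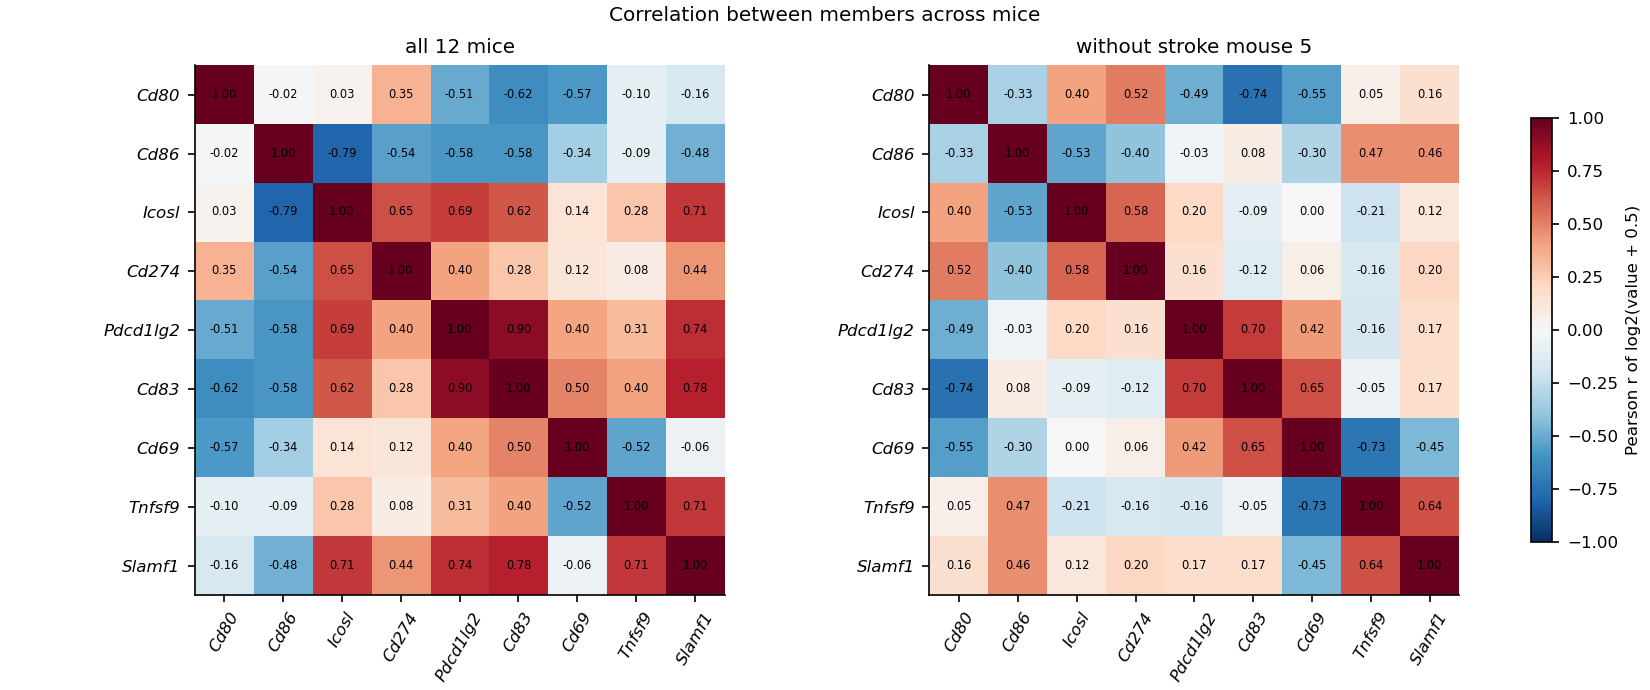
Pearson's r between members across mice on the scale of log2(value + 0.5), in all 12 mice (left) and without stroke mouse 5 (right), with colours from -1 (blue) to 1 (red). Pdcd1lg2 with Cd83 stays high, at 0.90 and 0.70, whereas Cd83 with Slamf1 goes from 0.78 to 0.17.

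For each tested member, the genes most like it were the 3 with the highest r over the 12 mice, chosen from all genes tested for that r, so no p applies. For Cd83 these were Nfkb2 (r = 0.98), the noncanonical NF-kB subunit, AI467606 (r = 0.98) and Ltb (r = 0.98), which encodes lymphotoxin beta, and r was 0.93, 0.95 and 0.94 without stroke mouse 5. For Cd69 they were Nfkb1 (r = 0.91), Taf13 (r = 0.91) and Prkx (r = 0.90), for Slamf1 they were Tnf (r = 0.97), Ptpn6 (r = 0.94) and Nfya (r = 0.94), and for Pdcd1lg2 they were Soat1 (r = 0.94), Pik3r4 (r = 0.93) and Emp3 (r = 0.93). Icosl was most like Gm6545 (r = 0.97), Cd84 (r = 0.96), which encodes a SLAM family receptor, and Ifi203 (r = 0.95). Cd274 was most like Cd3eap (r = 0.87), Pecam1 (r = 0.86) and Gm18294 (r = 0.86). Cd86 was most like Tlk1 (r = 0.91), Hmgb3 (r = 0.89) and Usp49 (r = 0.89), Cd80 like Cux2 (r = 0.93), Tfcp2 (r = 0.92) and Olfr1336 (r = 0.92), and Tnfsf9 like Tjap1 (r = 0.84), Gm6627 (r = 0.84) and Slc41a2 (r = 0.84). Without stroke mouse 5, r was 0.88, 0.71 and 0.72 for the genes listed for Slamf1, 0.83, 0.80 and 0.85 for Pdcd1lg2, 0.82, 0.77 and 0.79 for Cd86, 0.80, 0.81 and 0.80 for Tnfsf9, and at least 0.85 for those of Cd69, Icosl, Cd274 and Cd80.

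**Figure D5:**
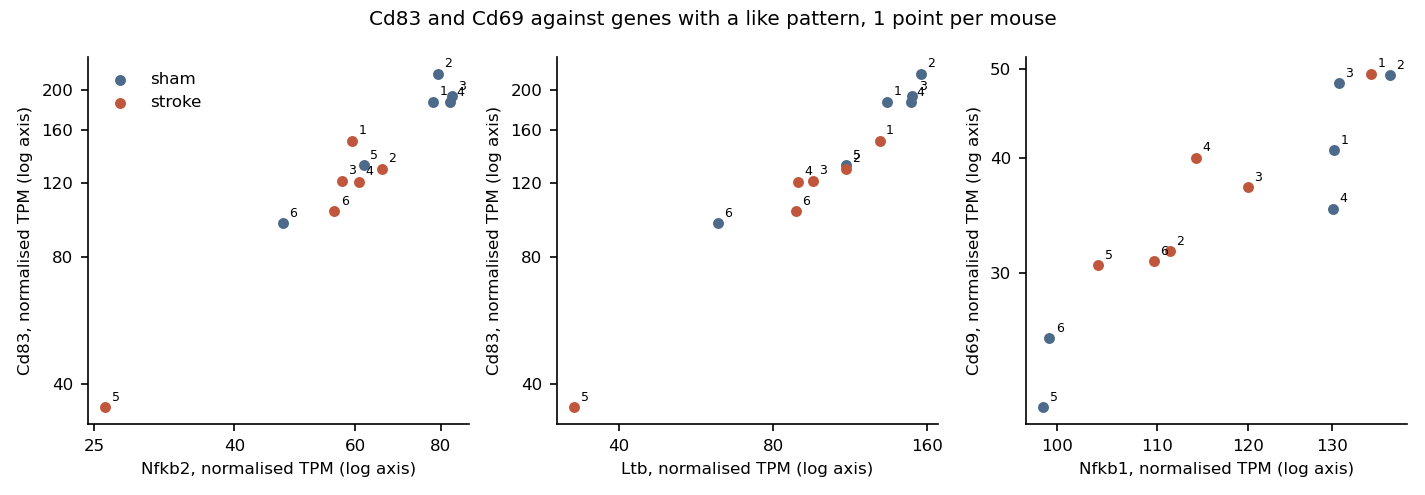
Cd83 against Nfkb2 and Ltb and Cd69 against Nfkb1 in normalised TPM (log axes), 1 point per mouse with its replicate number, sham controls in blue and stroke mice in red. Cd83 follows Nfkb2 and Ltb across mice of both groups with r = 0.98 for each, and stroke mouse 5 lies at the bottom left of both panels. The genes were chosen for their r in these data. Not shown are AI467606 (r = 0.98 with Cd83) and Taf13 and Prkx (r = 0.91 and 0.90 with Cd69). The mean log2 value of the 8 B cell markers had r = 0.92 with Cd83.

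Values that move with the members over the 12 mice are given as descriptions. The mean log2 value of the 8 B cell markers had r = 0.92 with Cd83, 0.87 with Pdcd1lg2, 0.78 with Slamf1 and 0.59 with Icosl, and r = -0.58 with Cd80. The mean log2 value of the 8 epithelial markers had r = 0.62 with Cd83, 0.48 with Pdcd1lg2 and -0.65 with Cd80, and the log2 column total had r = -0.81 with Cd80, 0.58 with Cd69 and 0.55 with Cd83. With the epithelial score as a covariate, neither Pdcd1lg2 nor Cd83 kept an unadjusted p under 0.05 (limma), with the values given above. Measured relative to the B cell markers, the log2 fold change was -0.39 for Pdcd1lg2 and -0.53 for Cd83 (unadjusted p = 0.0294 and unadjusted p = 0.0359, adjusted p = 0.650 for both, limma), where the median of all genes moved to 0.16.

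Of the receptors that bind these ligands, those known mainly from T cells had low values, with at least 1 mouse under 1 for each. Cd28 ranged from 0.415 to 1.37 in sham controls and from 0.446 to 2.05 in stroke mice, Icos from 0.0931 to 2.28 and from 0.258 to 2.14, and Pdcd1 from 0.226 to 1.45 and from 0.116 to 1.25. Ctla4 ranged from 0.489 to 2.90 and from 1.55 to 3.51, and Tnfrsf9 from 1.12 to 2.999 and from 0.617 to 2.18. Cd27, the receptor of CD70, had a mean of 19.7 ± 5.82 compared with 21.997 ± 6.13 (SD, n = 6 each). Of the 10 receptors and partners, 4 passed the filter on low values. Of these, none was called higher and 1 was called lower before adjustment (limma), where 4.42% and 1.69% of all genes tested were. Their median log2 fold change was 0.020. This median was 0.15 without stroke mouse 5 or with array weights, 0.0043 after quantile normalization and -0.0024 without sham control 6. It was 0.042 with the epithelial covariate, 0.14 under equal totals and 0.18 relative to B cell markers. There the median of all genes was 0.051, 0.13 and 0.16. The number of receptors and partners called higher was 1 without stroke mouse 2, and also without sham control 6 and stroke mouse 5 together. The lower gene was S1pr1, the lymphocyte egress receptor that CD69 holds back. S1pr1 measured 73.1 ± 19.5 in sham controls compared with 44.7 ± 14.4 in stroke mice (SD, n = 6 each), with 4 of 6 stroke mice below every sham control and a log2 difference of -0.71 (standard error 0.23, unadjusted p = 0.00769, adjusted p = 0.716 from limma).

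Of the 21 other B7, TNF and SLAM family and costimulatory genes, 14 were tested, with 2 called higher and 0 lower before adjustment (limma). Of all genes tested, 4.42% were called higher and 1.69% lower. The median log2 fold change of the 14 was 0.080. This median was 0.042 without sham control 6 and 0.041 with array weights. It was 0.20 under equal totals and 0.24 relative to B cell markers, where all genes had a median of 0.13 and 0.16. The 2 genes called higher were Btla and Cd200. Btla, a receptor that restrains B cell receptor signalling, was at 151 ± 18.9 in sham controls compared with 234 ± 84.0 in stroke mice (SD, n = 6 each), and 5 of 6 stroke mice lay above every sham control. Its log2 fold change was 0.58 (standard error 0.19, unadjusted p = 0.00849, adjusted p = 0.716 from limma). Cd200, which signals to myeloid cells, was at 47.3 ± 11.7 compared with 102.3 ± 69.1 (SD, n = 6 each), giving a log2 fold change of 0.94 (standard error 0.33, unadjusted p = 0.0128, adjusted p = 0.748 from limma). Stroke mouse 5 was the highest for both, at 398 and 238, and without it the log2 fold change was 0.41 for Btla and 0.66 for Cd200 (unadjusted p = 0.00611 and unadjusted p = 0.0162, limma). The number of lower genes of this list was 3 with array weights, 2 without sham control 6, and 1 with no filter, without stroke mouse 1 or without sham control 6 and stroke mouse 5 together. The most abundant genes of this list were Cd24a, at 256 ± 96.9 compared with 173 ± 43.9 (SD, n = 6 each), Btla and Cd40. Cd40, the receptor for T cell help, was at 122 ± 22.3 compared with 101.8 ± 23.4 (SD, n = 6 each), with a log2 fold change of -0.28 (adjusted p = 0.801, limma).

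Of 25 regulators of member expression or protein turnover, 24 were tested, with 0 called higher and 2 called lower before adjustment (limma). Of all genes tested, 4.42% were called higher and 1.69% lower. Of the 24 regulators, 18 had a negative log2 fold change with a median of -0.17 (limma), where 48.6% of all genes were negative. Relative to B cell markers, 13 were negative with a median of -0.015, where all genes had a median of 0.16 and 21.7% negative. The median was -0.0044 with 14 negative under the epithelial covariate, where all genes had a median of 0.051 and 37.8% negative. Under equal totals it was -0.045 with 14 negative, where all genes had a median of 0.13 and 27.4% negative. It was -0.26 with 21 negative without sham control 6 and -0.11 with 17 negative without stroke mouse 5. Stat6, which transmits interleukin-4 signals, was at 95.3 ± 13.3 in sham controls compared with 76.7 ± 13.8 in stroke mice (SD, n = 6 each), with a log2 fold change of -0.32 (unadjusted p = 0.0435, adjusted p = 0.791, limma). Egr3, an immediate early gene of antigen receptor signalling, had a log2 fold change of -0.68 (unadjusted p = 0.0303, adjusted p = 0.791, limma). Nfkb2 was at 71.9 ± 14.5 compared with 54.2 ± 14.2 (SD, n = 6 each), with a log2 fold change of -0.44 (unadjusted p = 0.0724, limma), and Nfkb1 had a log2 fold change of -0.057. Marchf1, the ubiquitin ligase that removes CD86 from the surface, was at 74.5 ± 9.57 compared with 90.8 ± 17.2 (SD, n = 6 each), with a log2 fold change of 0.27 (unadjusted p = 0.0882, limma). Cmtm6, which stabilises PD-L1, was at 33.4 ± 9.52 compared with 26.5 ± 5.24 (SD, n = 6 each), with a log2 fold change of -0.29 (unadjusted p = 0.198, limma). Among the most abundant genes of this list were Ciita and Stat3, with log2 fold changes of 0.10 and -0.019 (adjusted p = 0.850 and adjusted p = 0.974, limma). The number of lower genes of this list was 6 without sham control 6, 4 without stroke mouse 2, 1 without sham control 2 or 5, and 0 without sham control 3 or 4 or stroke mouse 3 or 5. It was 5 with array weights or without sham control 6 and stroke mouse 5 together, 1 after median-of-ratios scaling, quantile normalization, relative to B cell markers, with the epithelial covariate or without sham controls 1 and 2 together, and 0 under equal totals. The number called higher was 1 relative to B cell markers or without stroke mouse 6. Under equal totals, Stat6 had a log2 fold change of -0.20 and Egr3 of -0.56 (unadjusted p = 0.493 and unadjusted p = 0.0674, limma).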

How the data were processed

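The authors sequenced RNA of PP B cells from 12 mice, and the columns were matched to mice through the sample descriptions. According to the methods and the submitters' processing notes, the authors trimmed reads with Trimmomatic 0.39, quantified transcripts with kallisto 0.48.0 on GRCm38 and used sleuth 0.30.0 in R 4.1.2. Per the labels, each deposited value is a gene's normalized TPM, used here as a signal of unknown depth and counting error. The table has 4285 genes at 0 in every mouse.

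From these values, log2(value + 0.5) was computed, and limma 3.58.1 (R 4.3.3) was run without replicate blocking on the 12590 genes that never fell under 1, with p-values adjusted after Benjamini and Hochberg. The pseudocount understates the change of low genes. The test design assumed TPM. Single values and ratios were tested by enumerating every assignment of mice to groups (exact permutation, two-sided), and relations with 100000 permutations in Python 3.11.15. The limma step was checked on simulated data with known changes. The study combined mice from several independent experiments, but which mouse came from which is not given in the sources used here, so experiment was not a term.

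The genes and lists were chosen with earlier results of these data known. Named genes were all members, the 3 genes most like each, and, of each pathway list, the genes called, the receptors and the 3 most abundant; Marchf1 and Cmtm6 were added once their values had been seen. Some genes that the rule names are not reported here. Gene coordinates are from GENCODE M21 on GRCm38. A planned comparison of protein sequences was not made. Alternatives were other pseudocounts, filters, scalings, variance models, a replicate block and leaving out mice. Leaving out 2 mice together and an epithelial covariate were added after the data were seen.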

Additional observations from a re-analysis of the deposited data

Results flagged for a closer look

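Of 28 groups of 6 mice checked (each member and each ratio in each group), 3 held a mouse whose gap to its nearest neighbour exceeded Dixon's 95% critical value as a share of the group's range on the log2 scale, where chance gives about 1 in 20. All 3 are stroke mouse 5. Its Cd83 value was 35.3, compared with 103 in the next stroke mouse, so that the gap took 0.734 of the range. Its Slamf1 value was 9.41, compared with 19.8, a gap of 0.700 of the range. Its log2 ratio of Cd69 to Cd83 was -0.202, compared with -1.58, a gap of 0.760 of the range. Relative to the median of the other stroke mice, its values were 0.290 for Cd83, 0.420 for Pdcd1lg2, 0.423 for Slamf1, 0.568 for Tnfsf9, 0.597 for Icosl, 0.823 for Cd69, 0.846 for Cd274, 1.32 for Cd80 and 1.52 for Cd86.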

How the results depend on the processing

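Ratios were not recomputed for filters, B cell centring, trend, weights or the covariate, nor the Cd70 ratio after quantile normalization. Over 26 alternatives, 0 members had an adjusted p under 0.05 (limma), and Tnfsf9 stayed lower and not called in all of them. Pdcd1lg2 kept its unadjusted call in 23 and Cd83 in 11. The number of lower members was 1 with a pseudocount of 0.1, with at least 1 in 6 mice, with no filter and without sham controls 1 and 2, was 0 under equal totals and with the epithelial covariate, and ranged from 0 to 3 with single mice left out; the number of higher members ranged from 0 to 1. Over all genes, the 557 higher and 213 lower genes became 1418 and 350 with no filter, 348 and 70 under equal totals, 836 and 47 relative to B cell markers, 866 and 703 with array weights, and from 395 to 936 and from 146 to 1162 with single mice left out, highest without sham control 6. Lower genes numbered 327 after quantile normalization, 819 without sham control 6 and stroke mouse 5, 141 without sham controls 1 and 2 and 136 with the covariate. Genes at an adjusted p under 0.05 numbered 1 with at least 1 in 6 mice and 0 or 1 with single mice left out (limma). Equal totals moved the median of all genes to 0.13. The cause of these shifts was not tested.

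Directions turned for small changes: Cd86 was -0.035 with array weights, Cd274 0.064 under equal totals and 0.10 relative to B cell markers, and Icosl 0.024 relative to B cell markers. The median of all genes was 0.13 under equal totals and 0.16 relative to B cell markers. Without sham control 6 and stroke mouse 5, Cd86 was -0.088, Icosl 0.025, Cd274 0.022 and Cd69 -0.0054. With single mice left out, Cd86 ranged from -0.050 to 0.11 and Cd69 from -0.10 to 0.14. The log2 ratio of Cd80 to Cd86 differed by -0.018 without sham controls 1 and 2, and ranged from 0.025 to 0.35 with single mice left out. That of Cd274 to Pdcd1lg2 differed by 0.53 with a pseudocount of 0.1 (exact permutation test, p = 0.0476) and ranged from 0.35 to 0.59.

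Replicate numbers are shared between the groups, and same-numbered mice had a mean correlation of their deviations of 0.22, compared with -0.041 for other pairs. It was above 0.1 in 4 of 6 pairs, the lowest being 0.013, and 2 sham controls and 2 stroke mice correlated best with their own number. Pairing was taken to need a correlation above 0.1 in every pair, so the mice were treated as unpaired, although a partial pairing is not excluded. Blocking on the replicate number gave 404 lower genes and 1 higher gene among the receptors and partners, and Pdcd1lg2 was at -0.54 and Cd83 at -0.69 (unadjusted p = 0.0195 and unadjusted p = 0.0152, adjusted p = 0.473 and adjusted p = 0.469, limma). The log2 ratio of Cd274 to Pdcd1lg2 then differed by 0.49 and that of Cd69 to Cd83 by 0.73 (exact sign-flip test with the block, p = 0.0312 for both, the smallest that 6 pairs allow).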
